A study of Mus musculus with 16 samples.

Results

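The axon guidance ligands and receptors described here are the semaphorins of classes 3 to 7 with their plexin and neuropilin receptors, the netrins with Dcc and the Unc5 receptors, the Slits with the Robos, and the ephrins with the Eph receptors. They were taken by gene symbol among the protein-coding genes of the deposited table, which gave 71 of 56748 genes, 37 of them ligands and 34 receptors. They were measured by bulk RNA-seq in LMMP, the longitudinal muscle peeled off together with the myenteric plexus, which holds ganglia between the muscle coats of the bowel. HSCR mice were homozygous for a disrupted endothelin receptor B gene (Ednrb -/-), and WT mice were their Ednrb +/+ littermates. The study used male and female animals of a mixed C57BL6/J-129Sv background, 2 to 4 weeks old. The sex of the animals behind single libraries was not used here. The proximal and the distal colon gave 4 libraries per genotype, 16 in all. Ednrb -/- mice lack ganglia in the distal colon. The ganglionated proximal segment was told apart at dissection by its distention, and the study checked it by antibody staining for the neuronal marker Tuj1. The tissue field of all labels names the proximal colon, also for the 8 libraries whose titles name the distal colon, and the titles were followed.

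Guidance cues steer growing axons and migrating cells by attraction or repulsion. Netrins attract through Dcc and repel through Unc5 receptors, Slits repel through Robos, class 3 semaphorins act through neuropilin and plexin pairs, and ephrins signal between touching cells to Eph receptor kinases. In the bowel these cues act on neural crest cells, on enteric neurites and on the axons that enter from outside. The same proteins also pattern blood vessels and the epithelium, so a bulk library mixes their sources.

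Between 21384372 and 45831881 reads were counted per library, of which 16992 to 119207 fell on the 71 genes and 4.32% to 49.8% on mitochondrial genes. WT proximal 1 had the lowest total, the fewest reads on the 71 genes and the highest mitochondrial share. Ednrb, the disrupted gene, was at 33.8 to 67.1 CPM, reads scaled to the library total after TMM adjustment, in the WT proximal and at 7.84 to 37.4 CPM in the HSCR proximal libraries. In the distal colon it was at 11.8 to 43.0 CPM in WT and at 5.43, 6.10 and 9.48 CPM in 3 HSCR libraries, but at 94.7 CPM in the library labelled HSCR distal 1, the highest value of the 16 libraries. That library also held Hoxd13, a posterior patterning gene, at 0.615 CPM against 14 to 219 CPM in the other HSCR distal libraries, and a list of 20 neuronal markers at a mean log2 CPM of 5.36 against -1.22 to 1.12. HSCR proximal 1 held Hoxd13 at 125 CPM against 0.662 to 2.35 CPM in the other HSCR proximal libraries. Both libraries go against their segment labels in Hoxd13, and the library labelled HSCR distal 1 goes against its genotype label in Ednrb. Counts of members and some log2 fold changes are therefore also given without them. Other values, among them the differences within the first series described next, include them. Library names further set replicates 1 and 2 of every group (first series) apart from replicates 3 and 4 (second series). In the second series, names begin with CM in WT proximal 3 and 4 and HSCR proximal 4, and with LC in the others. CM names therefore occur only in the proximal colon, and there more often in WT than in HSCR. The second series was treated as 1 series all the same. What the series or the CM and LC names stand for is not given in the sources used here.

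The neuronal list was at 4.60, 5.69, 7.49 and 7.18 in WT proximal 1 to 4 and at 1.57, 1.73, 5.76 and 5.31 in HSCR proximal 1 to 4. The list of 12 glial markers was lower in every HSCR proximal library (2.09 to 3.93) than in any WT proximal library (4.51 to 4.99), a difference of -1.79 with an exact two-sided permutation p of 0.0286, the smallest that 4 against 4 allows, and 0.381 after adjustment over 40 list comparisons. The list of 20 epithelial markers, cells that lie outside the LMMP, was at 2.48 to 8.96 in the HSCR proximal and at -2.44, -1.77, 0.0305 and 6.30 in the WT proximal libraries (exact permutation p = 0.0857). Of the 20 epithelial markers, 17 to 20 had a CPM above 1 in the HSCR proximal libraries, and 20, 14, 4 and 5 did in WT proximal 1 to 4. Of the tissue that defines LMMP, all 12 smooth muscle markers were above 1 CPM in each of the 16 libraries, but their list was at 7.0 in HSCR proximal 2 against 9.82 to 11.4 in the others. Neuronal markers above 1 CPM numbered 9 of 20 in HSCR distal 4 and 14 to 20 in the other libraries.

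**Figure D1:**
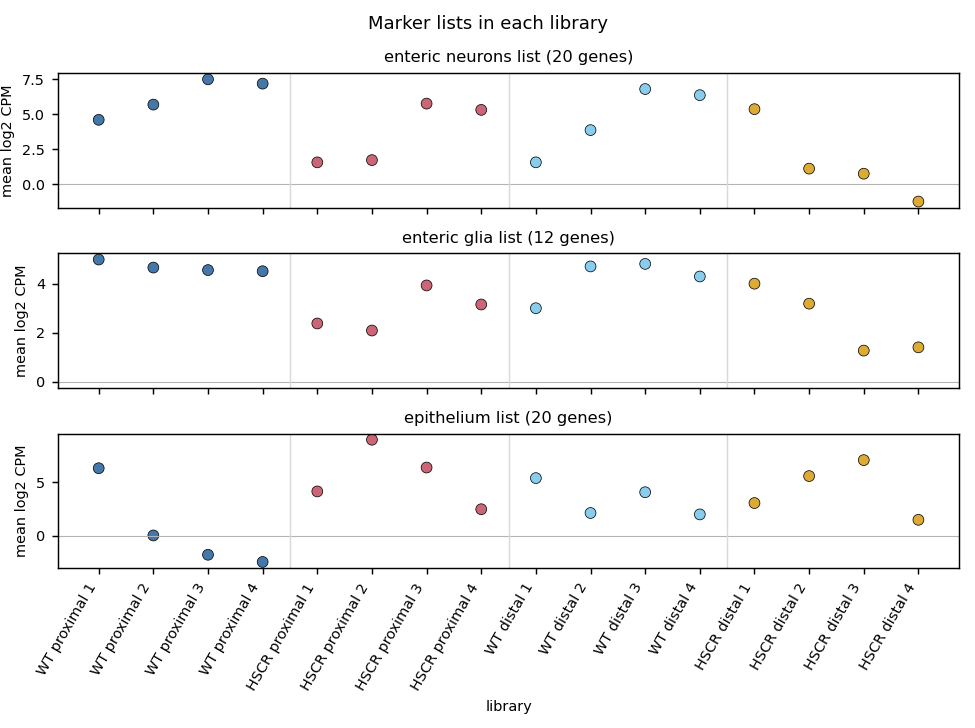
Mean log2 CPM of the neuronal (20 genes), glial (12 genes) and epithelial (20 genes) marker lists on the vertical axes, with 1 point per library and the 4 groups in blue, red, light blue and yellow. The neuronal list lies at 5.36 in the library labelled HSCR distal 1 against -1.22 to 1.12 in the other HSCR distal libraries and at 1.57 and 1.73 in HSCR proximal 1 and 2, and the epithelial list spans -2.44 to 8.96.

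Most of the 71 genes were detected in every group. Levels are compared between genes in the deposited FPKM, which are scaled per gene length. A mean FPKM above 0.5 was reached by 63 genes in the WT proximal, 59 in the HSCR proximal, 60 in the WT distal and 52 in the HSCR distal colon, and by 50 in all 4 groups. Among the ligands, Sema3c, a class 3 semaphorin, stood highest with a mean of 25.4 FPKM over the 16 libraries (13.6 to 51.7), followed by Ntn1 (netrin-1) with 20.7 FPKM (3.47 to 59.0) and Efna1 with 13.3 FPKM (2.63 to 41.4). Among the receptors, the neuropilin Nrp2 (20.0 FPKM), the vascular receptor Ephb4 (15.7 FPKM) and Plxnb2 (15 FPKM) stood highest. The ranges of these genes overlapped, so their order was not fixed beyond the spread between libraries.

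By the symbol rule, the netrin genes had a higher summed level than the netrin receptors. The 6 netrin genes, Ntng1 and Ntng2 among them, summed to 21.6 to 36.5 FPKM in the group means. Ntn1 alone held 13.2 to 29.7 FPKM of these. The 5 netrin receptors, Dcc and the Unc5 genes, summed to 3.31 to 6.48 FPKM. The receptor Neo1 was not in this sum and stood in the list of further cues and receptors. Dcc, the attractive receptor, was at or below 2.06 CPM in every library and had no count in 5 of the 16. Ntn5 and Robo3 had no more than 0.165 and 0.927 CPM in any library. Sema3a, which repels axons in the developing hindgut, was at 3.13 ± 1.28 FPKM in WT proximal, 4.15 ± 3.14 in HSCR proximal, 3.5 ± 1.68 in WT distal and 4.28 ± 1.58 in HSCR distal colon (SD, n = 4). The related Sema3d was at 2.24 ± 0.464, 2.27 ± 1.45, 2.45 ± 0.596 and 2.53 ± 1.05 FPKM in the same order. The group means of Sema3a and Sema3d lay within 1 SD of each other in all 4 groups.

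**Figure D2:**
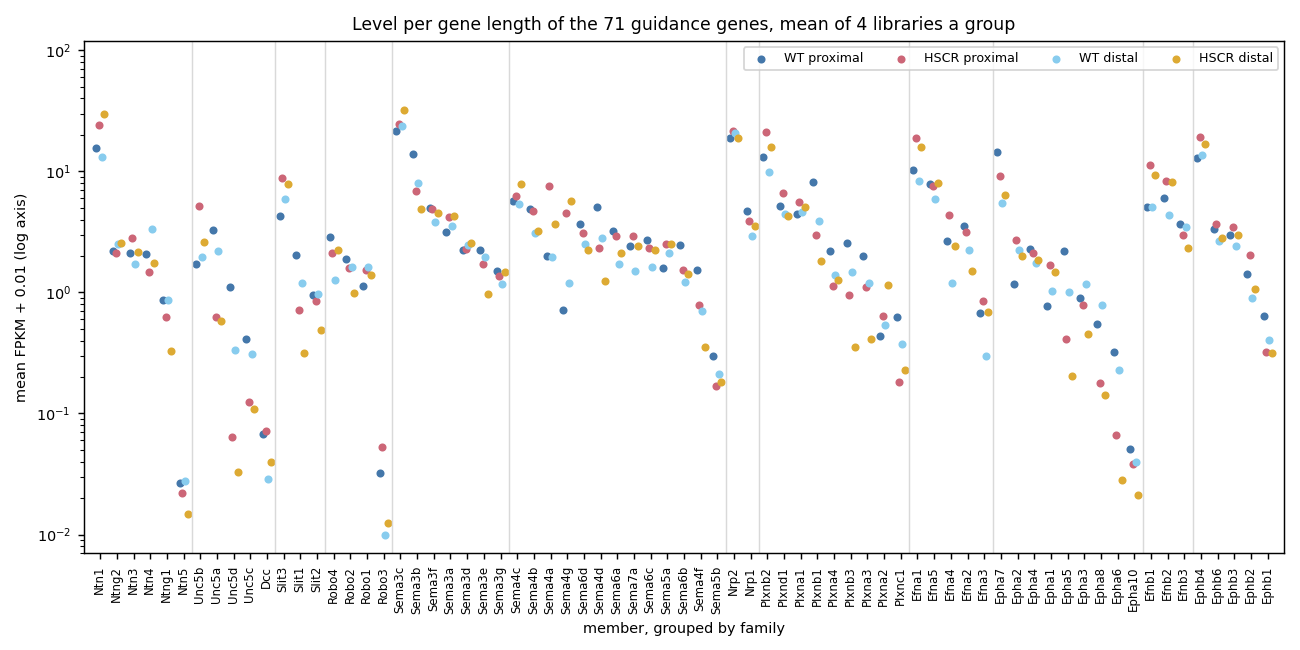
Mean FPKM plus 0.01 of each of the 71 genes on a log axis, with 4 points per gene for the groups (means of 4 libraries), and vertical lines between the families. Sema3c, Ntn1, Nrp2, Ephb4 and Plxnb2 lie highest, Dcc, Ntn5, Robo3 and Epha10 lowest, and Unc5d, Unc5a and Epha5 show wide gaps between WT and HSCR points.

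The comparison of HSCR with WT in the proximal colon asked how the ganglionated segment differs from its WT counterpart. A gene was called at an adjusted p under 0.05 by the quasi-likelihood test of edgeR, adjusted over all genes tested, and 0 of the 68 members tested were called (background 0% of 16664 genes). At an unadjusted p under 0.05 there were 9 of 68 (13.2%), against 6.62% of all genes tested. Of these 9, Unc5b, Efnb1, Plxnb2 and Sema4g had higher values in HSCR (5.88%, background 2.48%), and Sema3b, Epha6, Unc5d, Unc5a and Epha5 lower values (7.35%, background 4.13%). The 4 HSCR libraries lay wholly below the 4 WT libraries in 3 members, Sema3b, Unc5d and Epha6 (4.41%, background 2.83%), and wholly above in 0 (background 1.95%). The median log2 fold change was -0.10 over the 68 members and 0.04 over all genes. By family, the medians were -1.85 for the netrin receptors, -0.85 for the plexins and -0.42 for the EphA receptors, and 0.22, 0.33 and 0.45 for the EphB receptors, ephrin-A and ephrin-B. In bulk tissue, fewer cells of a type and less RNA per cell cannot be told apart.

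The Unc5 receptors, which turn the response to netrin into repulsion, included the member with the lowest log2 fold change in the proximal colon and the member with the smallest p, which lay on opposite sides of WT. Unc5d, on chromosome 8 (mm39, chr8:29136745-29709664), was at 1.00, 1.80, 28.9 and 10.2 CPM in WT proximal 1 to 4 and at 0, 0.553, 0.681 and 0.777 CPM in HSCR proximal 1 to 4. No HSCR library reached the lowest WT library, and WT proximal 3 and 4 lay far above the rest. The log2 fold change was -4.37 (SE 1.41, edgeR quasi-likelihood test, unadjusted p = 0.0126, adjusted p = 0.720). It was -3.91 within the first and -4.53 within the second series, as differences of mean log2 CPM, and -3.92 without HSCR proximal 1. HSCR proximal 1 had no Unc5d read, so the first-series value of -3.91, a difference of mean log2 CPM, depends on the prior count. The group means were 10.5 CPM in WT proximal and 0.503 CPM in HSCR proximal libraries.

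Unc5a (chr13:55097224-55153831) was at 1.22, 10.5, 25.5 and 18.4 CPM in WT proximal 1 to 4 and at 3.62, 1.18, 3.63 and 2.08 CPM in HSCR. Only WT proximal 1 lay within the HSCR range, and this was also the WT proximal library with the lowest neuronal (4.60) and the highest epithelial list (6.30). That library also had the highest mitochondrial share (49.8%) and the lowest read total of the 16. The log2 fold change of Unc5a was -2.41 (SE 0.80, unadjusted p = 0.0145, edgeR adjusted p = 0.722). Unc5c (chr3:141170977-141540685) was at 0.861, 2.93, 19.2 and 8.77 CPM in WT and at 3.30, 2.21, 1.46 and 1.84 CPM in HSCR (log2 fold change -1.85, SE 0.84, unadjusted p = 0.0563). The groups overlapped, and the difference was 0.76 in the first and -2.98 in the second series.

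Unc5b (chr10:60598372-60667360), a netrin receptor also known from endothelial cells, ran the other way. It was at 6.17, 12.9, 16.8 and 7.47 CPM in WT proximal 1 to 4 and at 24.3, 58.5, 30.7 and 16.2 CPM in HSCR, where only HSCR proximal 4 fell below a WT library, WT proximal 3. The log2 fold change was 1.58 (SE 0.48, unadjusted p = 0.0089, edgeR adjusted p = 0.691), with 2.08 in the first and 0.99 in the second series. The highest library, HSCR proximal 2, was also the one with the highest epithelial list (8.96) and the lowest smooth muscle list (7.0). The part of tissue make-up in the Unc5 values was not tested in cells. With the epithelial list as a term of the fit, Unc5d was at -2.16 (SE 1.95), Unc5a at 0.08 (SE 0.83), Unc5c at 0.26 (SE 1.18) and Unc5b at 1.22 (SE 0.80), and the unadjusted p of each was 0.164 or higher. Of the WT proximal libraries, only WT proximal 1 (6.30) had an epithelial list within the HSCR proximal range (2.48 to 8.96). The term therefore ran largely with genotype, and its fits rest much on that library.

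The 200 bases before the start of Unc5b and of Unc5d, the receptors with the most opposed values, are shown to set their promoters side by side. They were read from GRCm39 at the Ensembl canonical start in GENCODE M39, 5′ to 3′ on each gene's own strand, which is the minus strand for both. Capitals mark the GC box GGGCGG, searched on both strands, and no E-box CAGCTG was present in either.

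Unc5b, chr10:60667397-60667596: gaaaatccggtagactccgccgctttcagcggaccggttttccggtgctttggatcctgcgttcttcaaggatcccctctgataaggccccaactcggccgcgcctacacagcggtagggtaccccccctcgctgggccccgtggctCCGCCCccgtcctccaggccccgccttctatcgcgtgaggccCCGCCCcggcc

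Unc5d, chr8:29709665-29709864: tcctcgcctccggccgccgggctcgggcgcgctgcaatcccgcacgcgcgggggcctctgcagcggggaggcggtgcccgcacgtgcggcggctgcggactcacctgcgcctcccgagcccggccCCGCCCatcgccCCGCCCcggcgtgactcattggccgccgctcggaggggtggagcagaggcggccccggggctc

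Each window held 2 GC boxes, which began 53 and 11 bases before the start in Unc5b and 75 and 63 bases before it in Unc5d. The GC content was 68% and 81%, against a median of 54.5% over 21757 protein-coding genes. A GC box was found in 34.8% of all such windows and in 41 of the 71 members' windows (57.7%), and CAGCTG in 9.76% and in 11 members (15.5%). Unc5a held 1 of each motif and Unc5c neither. A match describes these letters only, and the opposed values of Unc5b and Unc5d stood beside the same number of GC boxes.

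**Figure D3:**
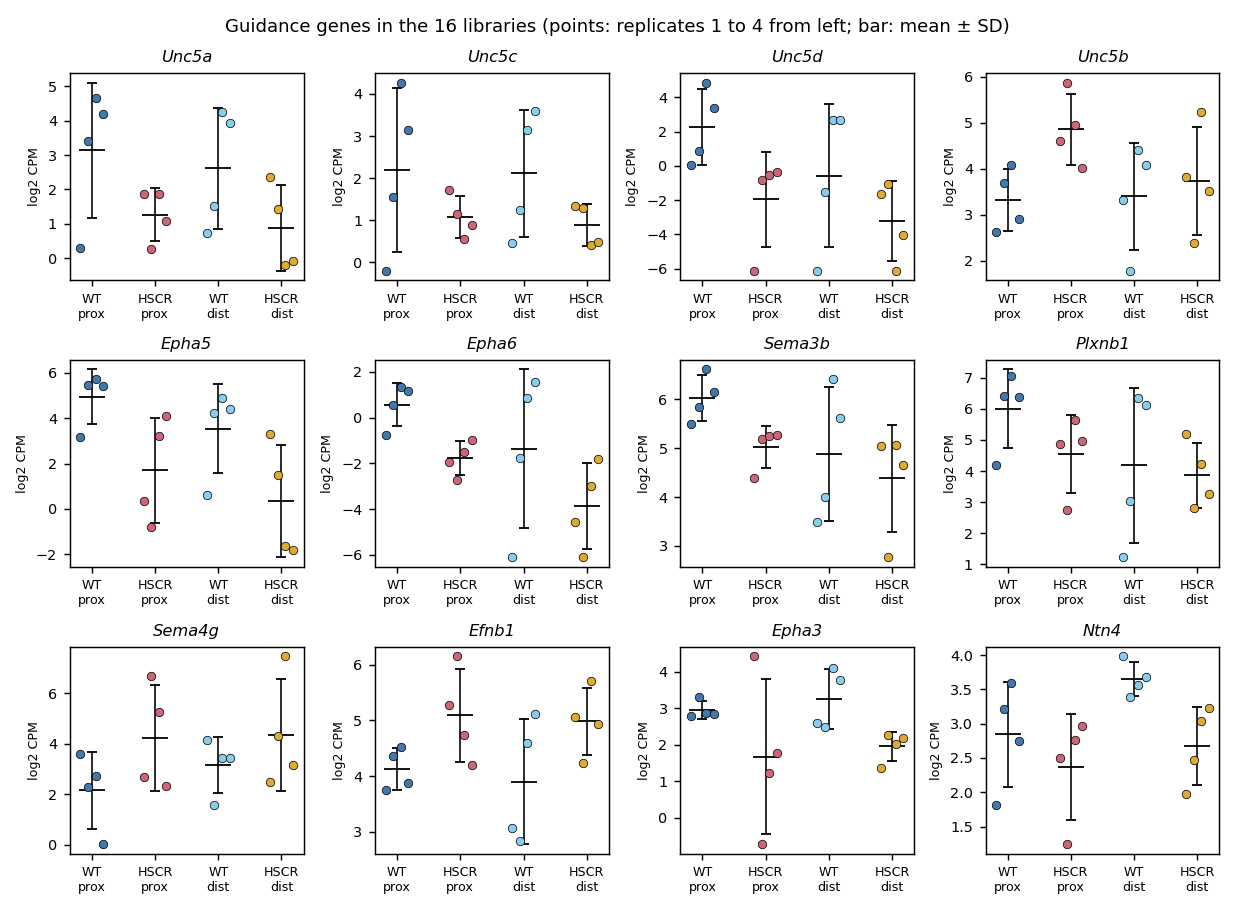
Log2 CPM of 12 guidance genes, 1 panel per gene, with the 4 libraries of each group as points in the order of replicates 1 to 4 and the group mean ± SD as a bar. Unc5d, Epha6 and Sema3b show no overlap between HSCR and WT in the proximal colon, and Epha3 and Ntn4 none in the distal colon. Unc5a and Unc5c reach their highest values in WT replicates 3 and 4 of both segments.

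Among the Eph receptors, Epha5 and Epha6 of the EphA group had lower values in the HSCR proximal libraries. Epha5, a receptor of the nervous system, was at 8.97, 44.4, 53.1 and 42.7 CPM in WT proximal 1 to 4 and at 1.25, 0.553, 9.14 and 16.8 CPM in HSCR proximal 1 to 4. The 2 HSCR libraries with the lowest Epha5, replicates 1 and 2, were also those with the lowest neuronal list (1.57 and 1.73), and WT proximal 1 overlapped the HSCR range. Its log2 fold change was -2.43 (SE 1.00, unadjusted p = 0.0384, edgeR adjusted p = 0.747), and -2.06 without HSCR proximal 1, where the unadjusted p was 0.0720. Epha6 was rare, at 0.574 to 2.50 CPM in WT and 0.138 to 0.494 CPM in HSCR without overlap, and rested on 4 to 101 reads a library. Its log2 fold change was -2.46 (SE 0.77, unadjusted p = 0.0108, edgeR adjusted p = 0.691). Epha7, the most abundant EphA receptor, was at 69.2 to 187 CPM in WT and 10.2 to 157 CPM in HSCR. Of the ephrins, Efnb1 (ephrin-B1, a transmembrane ligand) was at 13.5 to 22.9 CPM in WT and at 38.7, 70.9, 26.7 and 18.4 CPM in HSCR proximal 1 to 4, so that only HSCR proximal 4 lay within the WT range. Its log2 fold change was 1.11 (SE 0.43, unadjusted p = 0.0296, edgeR adjusted p = 0.747), with 1.65 in the first and 0.27 in the second series.

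In the semaphorin and plexin families, Sema3b, a secreted class 3 ligand, was lower without overlap. It was at 45.2, 57.6, 97.5 and 70.8 CPM in WT proximal 1 to 4 and at 20.9, 36.2, 38.2 and 38.4 CPM in HSCR (log2 fold change -1.03, SE 0.31, unadjusted p = 0.00924, edgeR adjusted p = 0.691). The difference was near in size in both series (-0.89 and -1.12). Sema4g, a membrane-bound semaphorin, was at 0.994 to 12 CPM in WT and at 6.32, 103, 37.7 and 4.94 CPM in HSCR (log2 fold change 2.63, SE 1.06, unadjusted p = 0.0352). It shares exon bases with Mrpl43 on the other strand in GENCODE M39, and the strand setting of the counting is not given in the sources used here. Its high libraries, HSCR proximal 2 and 3, were the 2 HSCR proximal libraries with the highest epithelial list (8.96 and 6.37), and with that list as a term its fold change turned to -0.26. Sema4a, another class 4 member, was at 108 CPM in HSCR proximal 2 and at 4.28 to 35.9 CPM in the other 7 proximal libraries. Plxnb2, a receptor of class 4 semaphorins, was at 76.5 to 147 CPM in WT and at 131 to 197 CPM in HSCR (log2 fold change 0.67, SE 0.27, unadjusted p = 0.0345, edgeR adjusted p = 0.747). Plxnb1, the receptor of Sema4d, was at 18.2, 84.5, 134 and 83.3 CPM in WT and at 29.2, 6.71, 49.7 and 31.4 CPM in HSCR (log2 fold change -1.47, SE 0.66, unadjusted p = 0.0530). The plexins of the B type therefore stood on both sides of WT, and neither difference passed the adjusted threshold. With the epithelial list as a term Plxnb1 turned to 0.13.

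None of the 3 Slits and the 3 Robos tested was at an unadjusted p under 0.05 in the proximal colon, with log2 fold changes of -1.56 to 1.04 for the Slits and -0.46 to 0.43 for the Robos. Slit1 had means of 12.6 CPM in WT and 4.28 CPM in HSCR (SE of the log2 fold change 1.41), and Slit3 of 26.5 and 55.5 CPM (SE 0.87). The abundant ligands Sema3c and Ntn1 were at 136.9 to 175.7 CPM and 40.4 to 146 CPM in WT and at 119 to 223 CPM and 25.3 to 273 CPM in HSCR proximal libraries. Both ranges in HSCR enclosed those in WT, with the low end set by HSCR proximal 2, the library with the lowest smooth muscle list (7.0). HSCR proximal 1, 3 and 4 were at 223, 166 and 205 CPM for Sema3c and at 137, 273 and 194 CPM for Ntn1.

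The count moved with the libraries used, from 5 of 68 without WT proximal 4 to 14 of 69 without WT proximal 1 (background 3.96% and 9.81%). Without HSCR proximal 1, 11 of 69 members tested were at an unadjusted p under 0.05 (15.9%, background 5.69%) and 0 were called. Epha2, Epha3, Sema3e and Sema4a then joined, and Plxnb2 and Epha5 no longer passed. With the series of library names as a term there were 12 of 68 (17.6%, background 9.15%). With the epithelial list as a term there were 5 of 68, all higher in HSCR (7.35%, background 4.75%), which were Efnb2, Ephb4, Plxna1, Plxnb2 and Robo1. The method named in the study's methods, RUVr with 4 factors and a likelihood ratio test, called 17 of 68 members (25%, background 21%), 5 higher and 12 lower. With 1 factor it called 3, Epha5, Epha6 and Plxnb1 (4.41%, background 2.89%), and DESeq2 called Epha6 and Unc5d (2.86%, background 0.831%). The calls with 1 factor and with DESeq2 were all of lower values in HSCR.

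The distal colon compared the aganglionic segment with its WT counterpart. None of the 65 members tested was called by edgeR's quasi-likelihood test (0 of 65, background 0% of 17059 genes), and 2 were at an unadjusted p under 0.05 (3.08%, background 2.64%, and with DESeq2 9 of 71, 12.7% against 4.09% of all genes, and 0 called), Epha3 and Ntn4, both lower in HSCR (background 1.76%) and without overlap between the groups (3.08%, background 1.15%). The median log2 fold change was 0.05 over the members and 0.04 over all genes. Epha3, an EphA receptor, was at 6.05, 5.59, 17.3 and 13.8 CPM in WT distal 1 to 4 and at 2.57, 4.78, 4.04 and 4.50 CPM in HSCR distal 1 to 4. The HSCR libraries lay close together below the lowest WT library, and the higher WT values were those of the second series. Its log2 fold change was -1.42 (SE 0.48, unadjusted p = 0.0167, edgeR adjusted p = 1.00), and -1.27 without the library labelled HSCR distal 1. Ntn4, a netrin that binds laminins of the basement membrane, was at 15.8, 10.5, 11.8 and 12.9 CPM in WT and at 3.91, 5.51, 8.19 and 9.38 CPM in HSCR (log2 fold change -0.93, SE 0.37, unadjusted p = 0.0343, edgeR adjusted p = 1.00). Here the WT libraries lay close together, and the library labelled HSCR distal 1 was the lowest. Without that library the log2 fold change was -0.75 with an unadjusted p of 0.0733.

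The Unc5 receptors of the distal colon depended on the library. Unc5d was at 0, 0.337, 6.32 and 6.27 CPM in WT distal 1 to 4 and at 0.307, 0.474, 0 and 0.0457 CPM in HSCR. Unc5a was at 1.64, 2.86, 19.3 and 15.4 CPM in WT and at 5.17, 2.70, 0.847 and 0.936 CPM in HSCR. In both genes WT distal 3 and 4 were high and WT distal 1 and 2 lay within or near the HSCR range, and the highest Unc5a of the HSCR distal group was that of the library labelled HSCR distal 1. Their log2 fold changes were -3.89 (SE 1.81, unadjusted p = 0.0603) and -1.96 (SE 0.93, unadjusted p = 0.0645). Within the first series the differences were 2.47 and 0.78, and within the second -7.74 and -4.25, so the sign differed between the series, in Unc5d with libraries at 0 whose log2 values rest on the prior count of 0.5. Unc5b was at 3.42 to 21 CPM in WT and at 5.18 to 37.6 CPM in HSCR, with overlapping groups.

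The count in the distal colon moved with single libraries, from 0 of 65 without WT distal 3 to 9 of 69, all lower, without WT distal 1 (background 1.94% and 4.71%). Without the library labelled HSCR distal 1 there were 7 of 67 members at an unadjusted p under 0.05 (10.4%, background 5.24%) and 0 called. The 6 lower ones were Plxnb3, Epha5, Efna2, Unc5a, Epha3 and Plxna3, and Sema4g was higher. Plxnb3, a plexin known as a receptor for Sema5a, was at 0.708, 4.91, 20.7 and 14.2 CPM in WT distal 1 to 4 and at 7.32, 0.729, 0.536 and 0.502 CPM in HSCR distal 1 to 4. The library labelled HSCR distal 1 alone stood above 1 CPM in HSCR, and WT distal 1 was as low as the other HSCR libraries. The log2 fold change was -2.10 (SE 1.20) with and -4.09 (SE 1.10, unadjusted p = 0.00576, edgeR adjusted p = 0.813) without that library. Epha5 was at 1.51 to 29.2 CPM in WT and at 9.75, 2.77, 0.311 and 0.274 CPM in HSCR distal 1 to 4, and its log2 fold change went from -2.37 to -3.95. WT distal 1, which was low in Plxnb3 and Epha5, had the lowest neuronal list of the WT libraries (1.57). RUVr with 4 factors called 12 of 65 members in the distal colon (18.5%, background 9.51%), 4 higher and 8 lower.

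**Figure D4:**
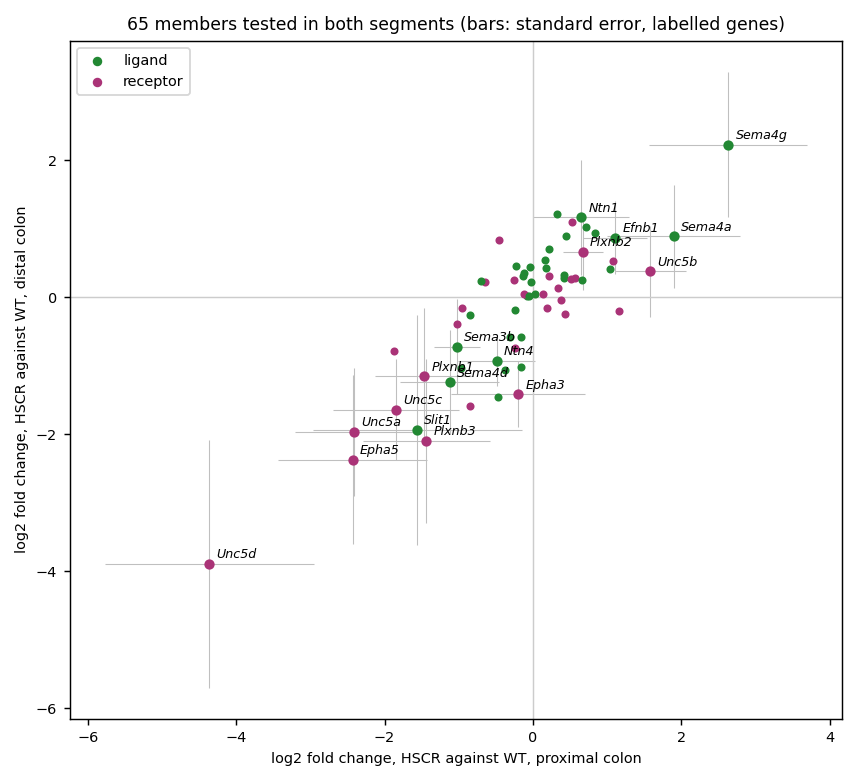
Log2 fold change of HSCR against WT in the proximal colon (horizontal) and in the distal colon (vertical) for the 65 members tested in both, with ligands in green, receptors in purple and standard errors as bars for the labelled genes. Unc5d lies lowest on both axes (-4.37 and -3.89), Sema4g highest (2.63 and 2.23), and Epha3 and Ntn4 lie lower in the distal than in the proximal colon.

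The difference of the genotype effects of both segments was tested over all 16 libraries, and 0 of 69 members were called by edgeR's quasi-likelihood test (background 0% of 18619 genes), with 0 at an unadjusted p under 0.05 (background 1.44%). The smallest unadjusted p belonged to Unc5b, with log2 fold changes of 1.58 proximally and 0.38 distally (interaction -1.19, SE 0.86, unadjusted p = 0.184, edgeR adjusted p = 1.00). Epha3, with -1.42 in the distal and -0.20 in the proximal colon, gave an interaction of -1.20 (SE 1.07). This value rested on HSCR proximal 1, which held Epha3 at 21.5 CPM against 0.588 to 3.39 CPM in the other HSCR proximal libraries, and it was 0.51 without that library. Without HSCR proximal 1 and the library labelled HSCR distal 1 the interaction of 1 member, Plxnb3, was at an unadjusted p under 0.05 (1.45%, background 1.96%).

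Between the segments of WT mice, 0 of 69 members were called (edgeR quasi-likelihood test, background 0.0181% of 16566 genes), and 1 was at an unadjusted p under 0.05 (1.45%, background 5.23%), with 0 called and 1 of 71 at that level by DESeq2 (1.41%, against 5.48% of all genes). This was Epha7, at 69.2, 187, 183 and 141 CPM in WT proximal 1 to 4 and at 8.82, 45.8, 90.2 and 85.7 CPM in WT distal 1 to 4. The groups overlapped only through WT proximal 1. Its log2 fold change was -1.35 (SE 0.60, unadjusted p = 0.0487, edgeR adjusted p = 0.906). Of the 69 members 48 had a log2 fold change below 0, and the median was -0.35 against 0.03 over all genes tested. RUVr called 13 members with 4 factors (18.8%, background 19.7%) and 3 with 1 factor (4.35%, background 1.99%), all lower in the distal colon. The neuronal list had a mean of 6.24 in WT proximal and 4.65 in WT distal libraries (exact permutation p = 0.286). Between the segments of HSCR mice, 0 of 67 were called (background 0% of 17086 genes) and 0 were at an unadjusted p under 0.05 (background 1.49%). The median was -0.23 against -0.04. Without HSCR proximal 1 and the library labelled HSCR distal 1 there were 6 of 66, all lower in the distal colon (9.09%, background 4.91%): Plxnb3, Dcc, Ephb2, Plxna3, Efna2 and Sema4d. Leaving out the library labelled HSCR distal 1 alone gave 8 of 67 (background 5.47%), and leaving out HSCR proximal 1 alone gave 0 (background 2.11%).

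Across the 16 libraries, the highest values of some guidance genes lay in the WT libraries of the second series. The 4 WT libraries of the second series, WT proximal 3 and 4 and WT distal 3 and 4, held the 4 highest values of all 16 in 11 of 69 members (15.9%, background 3.11% of 18619 genes). These were the receptors Unc5a, Unc5c, Unc5d, Epha6, Epha8, Plxna3, Plxna4 and Plxnc1 and the ligands Sema4d, Ntng1 and Slit1. Slit1, the Slit with the most neural expression, was at 34.8 and 14 CPM in WT proximal 3 and 4 and at 10.5 and 16.4 CPM in WT distal 3 and 4, and at or below 8.34 CPM in every other library. Within the second series, HSCR libraries lay below WT libraries in both segments in 20 of 65 members (30.8%, background 12.4% of 16210 genes) and above in both in 2, Sema4c and Efna1 (3.08%, background 6.88%). The same 4 WT libraries had the 4 highest neuronal list values (6.36 to 7.49). With 2 libraries per group in each series no test was made within a series.

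**Figure D5:**
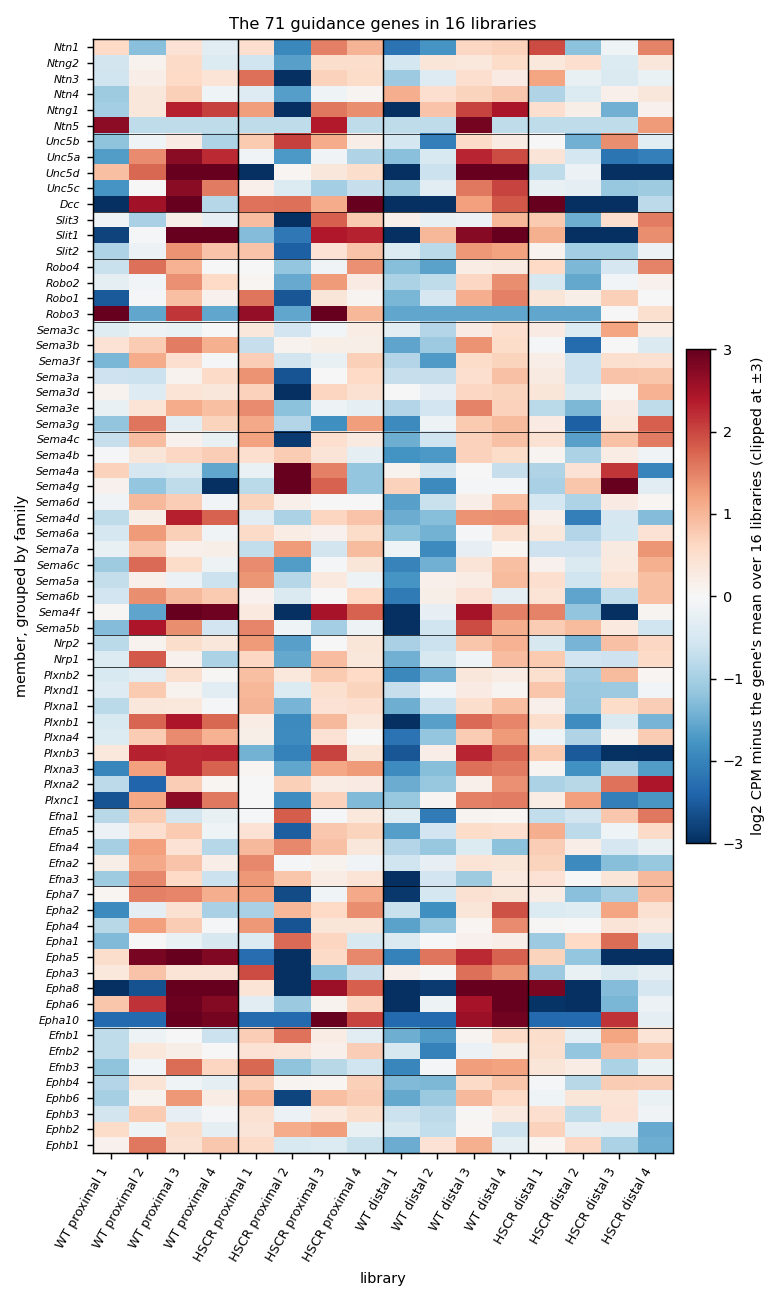
Log2 CPM of the 71 members (rows, by family) minus each gene's mean over the 16 libraries (columns, by group), from blue (3 or more below) to red (3 or more above). Rows such as Unc5d, Slit1, Epha8 and Plxnc1 are reddest in WT replicates 3 and 4 of both segments, Sema4a and Sema4g in HSCR proximal 2 and HSCR distal 3, and WT distal 1 is blue in most rows.

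Other genes of the pathway were taken as a list of 41 further cues and receptors and one of 70 intracellular effectors. In the proximal colon 4 of 38 cues and receptors tested were at an unadjusted p under 0.05, 1 higher and 3 lower, and 11 of 70 effectors, 2 higher and 9 lower, with 0 called in either list (edgeR quasi-likelihood test, background 6.62% at the unadjusted threshold). Their median log2 fold changes were 0.02 and -0.09. Rnd2, which acts in migrating neurons, had means of 81.7 CPM in WT and 19.7 CPM in HSCR (log2 fold change -2.08, SE 0.36, unadjusted p = 0.000288, edgeR adjusted p = 0.437). Dpysl2, which encodes the collapsin response mediator protein CRMP2 downstream of Sema3a, had means of 120 and 41.9 CPM (log2 fold change -1.54, SE 0.33, edgeR adjusted p = 0.525). Cntn2, an adhesion molecule of axons, had means of 5.22 and 0.436 CPM (log2 fold change -3.57, SE 0.93, edgeR adjusted p = 0.649). In the distal colon 1 of 39 cues and receptors and 4 of 70 effectors were at an unadjusted p under 0.05, all lower in HSCR (background 2.64%).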

How the data were processed

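RNA-seq of poly(A)-selected LMMP RNA gave 16 libraries, whose titles supplied genotype, segment and replicate number. The authors aligned the reads with HISAT2 (2.2.1) to mm39 and counted them per GENCODE gene with featureCounts (2.0.6), and deposited these counts without scaling. FPKM were deposited by the authors as well and were used here only to compare levels between genes. The deposited columns of the authors' own comparisons (fold changes, p-values) were not used. The strandedness is not given in the sources used here.

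CPM were computed with TMM factors over all libraries, and log2 CPM with a prior count of 0.5. Genes were tested with edgeR 4.0.16 (filterByExpr, TMM, quasi-likelihood test, Benjamini-Hochberg over all genes tested, called at an adjusted p under 0.05) separately per comparison, and the interaction over 16 libraries. The replicates are separate libraries of 4 mice a group, and whether both segments came from the same mice is not given in the sources used here. Mean levels of 10 marker lists were compared by exact permutation, two-sided. The spread between libraries, as the biological coefficient of variation, was 0.715 proximally and 0.737 distally. How far depth limited the precision was not tested.

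The members and lists were chosen with earlier results of these data known. Named were the 12 members with the smallest p in each genotype comparison, 8 in each segment comparison, 6 in the interaction, the highest FPKM of each family, and Dcc, Ntn1, Sema3a, Sema3c and Sema3d. Members picked out in the counts across libraries were chosen after their values were seen. In GENCODE M39, 37 of the 71 members share exon bases with a gene on the other strand and 6 with one on the same strand. Besides Sema4g, the 37 include Unc5a (with Hk3 and Gm31313), Epha1 (with Zyx) and Sema4d (with Secisbp2). Unc5c, Epha5, Epha6, Sema3b, Sema4a, Plxnb1, Plxnb2 and Ntn4 are also among them. Counts were simulated with the observed dispersion and log2 fold changes of 2 or more in either direction. Of 190 changed genes, 36.3% were recovered for the proximal comparison, with 2 false calls. Smaller changes were not simulated. The alternatives were DESeq2 1.42.0, the likelihood ratio test, limma-voom (limma 3.58.1), RUVr with 1 and 4 factors, other normalizations and filters, added terms and leaving out libraries. Leaving out HSCR proximal 1 and the library labelled HSCR distal 1 together was chosen after seeing the data. R 4.3.3 and Python 3.11.15 were used.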

Additional observations from a re-analysis of the deposited data

Results flagged for a closer look

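Among 39 named members and 10 marker lists, 196 groups of 4 libraries were screened for 1 library far from the other 3 (by Dixon's gap-to-range ratio), a screen that picks about 1 in 20 groups by chance, and 13 were found. The ratio was taken on log2 CPM, while values of members are given here in CPM. No genotype difference differed between the segments by the interaction test. In HSCR proximal 1, Efna2 was at 13.2 CPM against 4.48 to 5.20 in the other 3, Sema3b at 20.9 against 36.2 to 38.4, and Unc5d at 0 against 0.553 to 0.777. The log2 value of a library at 0 depends on the prior count, and so does the flag of Unc5d. In HSCR proximal 2, Sema3d was at 0.864 CPM against 24 to 28.6, Slit2 at 3.08 against 23.1 to 30.8, and Slit3 at 1.45 against 53.6 to 108. The mesothelial list of the same library was at a mean log2 CPM of -1.81 against 3.84 to 4.76. In WT proximal 1, Epha5 was at 8.97 CPM against 42.7 to 53.1 and Plxnb3 at 5.31 against 20.4 to 21.4. Epha5 was also low in WT distal 1, at 1.51 CPM against 18.9 to 29.2. Plxnb3 was high in the library labelled HSCR distal 1, at 7.32 CPM against 0.502 to 0.729. The mesothelial list was at -1.04 in HSCR distal 2 against 4.36 to 4.67, and the list of interstitial cells of Cajal at 5.42 in HSCR distal 4 against 4.88 to 4.91.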

How the results depend on the processing

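No member was called by edgeR's quasi-likelihood test in any comparison, also with each library left out in turn, with other normalizations and filters, and with the name series or the epithelial list as a term. The number called in the proximal colon was 2 with DESeq2, 3 with RUVr with 1 factor and 17 with RUVr with 4 factors. RUVr with 4 factors called 12 in the distal colon and 13 between the WT segments, where RUVr with 1 factor called 3. With the epithelial list as a term the proximal log2 fold changes changed sign, to 0.0785 for Unc5a, 0.26 for Unc5c, 0.13 for Plxnb1, -0.26 for Sema4g and -0.67 for Sema4a. The interaction of Sema6b changed to -0.15. The SEs of Unc5a and Unc5c in that fit were larger than their values, so their direction was not settled. In the proximal colon the term ran largely with genotype. The interaction of Epha3 became 0.61 without HSCR proximal 1 and the library labelled HSCR distal 1, and ran from -1.59 to 0.51 with single libraries left out, lowest without HSCR proximal 2 and above 0 only without HSCR proximal 1. The epithelial list's difference in the distal colon was 0.902, and ran from -0.0201 without HSCR distal 3 to 1.84 without HSCR distal 4. Of the log2 fold changes of named members under alternatives, 1147 kept direction and side of the threshold, 26 passed it and 8 reversed. The causes were not tested.

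Same-numbered libraries were compared by the correlation of their deviations from the group means. Between the segments, which could share a mouse, it ran from -0.000112 (HSCR replicate 1) to 0.419 (WT replicate 1). Between the genotypes it ran from -0.215 to 0.425. The library names of replicates 1 and 2 carry the same numbers in both segments. These values do not settle whether same-numbered libraries share a mouse, and the main fits did not take them as pairs. With the replicate block, 0 members were called in every comparison, and 9 of 69 (background 8.44%) against 1 were at an unadjusted p under 0.05 between the WT segments. Dcc, Ntn5, Robo3 and Epha10 lay near the floor, with no more than 83, 8, 49 and 30 reads in any library. Differences in these genes rest on few reads. This also holds for Dcc between the HSCR segments without HSCR proximal 1 and the library labelled HSCR distal 1.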

Other observations

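Epha1 was at 13.3 CPM in HSCR proximal 2 and 13.2 CPM in HSCR distal 3, whose epithelial list means of 8.96 and 7.06 were the highest of the 16, and at or below 6.41 CPM elsewhere. It was at 1.65 CPM, the lowest value of the 16, in WT proximal 1, where the epithelial list was at 6.30. Efna1 was at 71.6 CPM in HSCR proximal 2, but also at 60.3 CPM in HSCR distal 4, where the epithelial list was at 1.49. Between the WT segments, 4 of the 70 effectors were at an unadjusted p under 0.05 in edgeR's quasi-likelihood test (background 5.23%). Vav3 (log2 fold change 1.52), Rock2 (0.84) and Rasa1 (0.45) had higher and Dpysl2 (-1.19) lower values in the distal colon, with an adjusted p of 0.906 for each. Of the 40 comparisons of marker lists, 3 reached the smallest exact permutation p of 0.0286 (adjusted p = 0.381), the glial list, the adipocyte list (a difference of -2.46 in mean log2 CPM between HSCR and WT proximal libraries) and the fibroblast list (0.43 between WT distal and WT proximal libraries). The others, among them all comparisons of the smooth muscle, interstitial cell of Cajal, endothelial, macrophage and mesothelial lists, had an exact permutation p of 0.0857 or higher.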
